A study of Mus musculus with 32 samples.

Results

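The genes described here encode the Janus kinases (JAKs) and the signal transducers and activators of transcription (STATs), measured in 4 lines of murine Ba/F3 cells. The list held 9 genes, Jak1, Jak2, Jak3, Tyk2, Stat2, Stat3, Stat4, Stat5b and Stat6, out of 19938 genes that have their own probe set. Of the 9, 8 had 1 probe set assigned to their symbol alone. Jak3 shares its only probe set with Insl3 and is given no value. Stat5a, the neighbour and close relative of Stat5b, is given beside the members.

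The values come from 32 Affymetrix Mouse Gene ST 1.0 arrays, 8 per line, and are log2 expression levels after robust multi-array average (RMA) normalization. Ba/F3 is an interleukin-3 dependent murine pro-B cell line. All 4 lines carry a transduced human gp130, the signal-transducing chain of the IL-6 receptor. The growth protocol names Hyper-IL-6, a fusion of IL-6 with its soluble receptor, for all samples, but the methods add that transduced lines were later selected for growth on GFP and mCherry proteins with Hyper-IL-6 removed, so the culture history may differ between the lines. Ba/F3-gp130, the parental line, carries nothing further. The natural receptor line, Ba/F3-IL-12Rβ1-IL-23R, additionally carries the natural IL-23 receptor chains. The paired SyCyR line, Ba/F3-SyCyR(IL-23/2A), carries synthetic cytokine receptors (SyCyRs) in which nanobodies against mCherry and GFP replace the ligand-binding parts of IL-23R and IL-12Rβ1. The single SyCyR line, Ba/F3-SyCyR(IL-23R), carries the GFP-binding form of IL-23R alone. The protocol gives 3 h without serum and then 1 h with 100 ng/ml GFP-mCherry, Hyper-IL-23 or 3xGFP for all samples alike, and the methods add a control supernatant and 4 independent biological replicates. The sample labels name the line and a number from 13 to 20, but neither the stimulation of an array nor what the number stands for, and the methods do not describe arrays of the parental line. Arrays with odd and with even numbers, 4 each per line, were therefore compared as such, and no condition was read from them. Each receptor complex is represented by 1 independently selected line, so receptor, selection and line cannot be told apart.

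Array medians lay between 6.94 and 7.18, and arrays of one line correlated at 0.988 or higher. The median over the mean levels of all probe sets was 7.04, and values under it are not shown to be above background. It is not a measured background, so a value over 7.04 does not by itself show expression. By medians per line, 5 of 15 pro-B cell markers were above 7.04 in each line, among them Cd79a, Cd79b and Tcf3. Pax5 (6.50 to 6.54), Ebf1 (5.72 to 5.80) and Rag1 (5.87 to 5.92) were not. Of 14 granulocyte and macrophage markers 4 to 8 were above 7.04 in a line, Prtn3 (11.46 to 11.98) among them, and S100a8 (5.47 to 5.62) was not. Of 11 mast cell and basophil markers it was 3 or 4, with Gata2 (12.26 to 13.04) among them and without Kit (6.39 in each line) and Cpa3 (5.13 to 5.34). In such bulk samples a smaller share of expressing cells and less RNA per cell cannot be told apart.

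A cytokine receptor has no kinase of its own and holds JAKs at its cytoplasmic part. Ligand binding brings the receptor chains together, the JAKs phosphorylate each other and the receptor, and STATs dock there, are phosphorylated and enter the nucleus as dimers. IL-23 signals through JAK2, bound to IL-23R, and TYK2, bound to IL-12Rβ1, and mainly through STAT3. gp130 uses JAK1, JAK2 and TYK2 and also STAT3, and the IL-3 receptor uses JAK2 and STAT5. A change in STAT activity is a change in phosphorylation, which the transcript levels described here do not show.

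Among the kinases and STATs, Stat4 stood apart in one line and Stat2 differed between lines. Stat2 and Stat3 were higher on the odd-numbered arrays of the natural receptor line, by less than 1.5-fold, and passed the test in some settings only. In the paired SyCyR line they lay in the same direction (0.20 and 0.18, neither passing). Their odd minus even difference was not shown to differ between lines. The remaining differences were also under 1.5-fold. Stat4 signals were higher in the single SyCyR line (5.92 to 6.86) than on every other array (5.07 to 5.55), but all of them lay under 7.04, so the size of a difference in transcript cannot be given. Stat2 was lower in the single SyCyR line than in the natural receptor line by 0.64. Between odd and even numbers no member reached 1.5-fold in any line, whereas the STAT feedback gene Socs3 differed by up to 4.57 on the same arrays. The split was made because known STAT target genes alternate, so the size for Socs3 is no independent evidence. The plot of all values by line shows these patterns array by array.

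**Figure D1:**
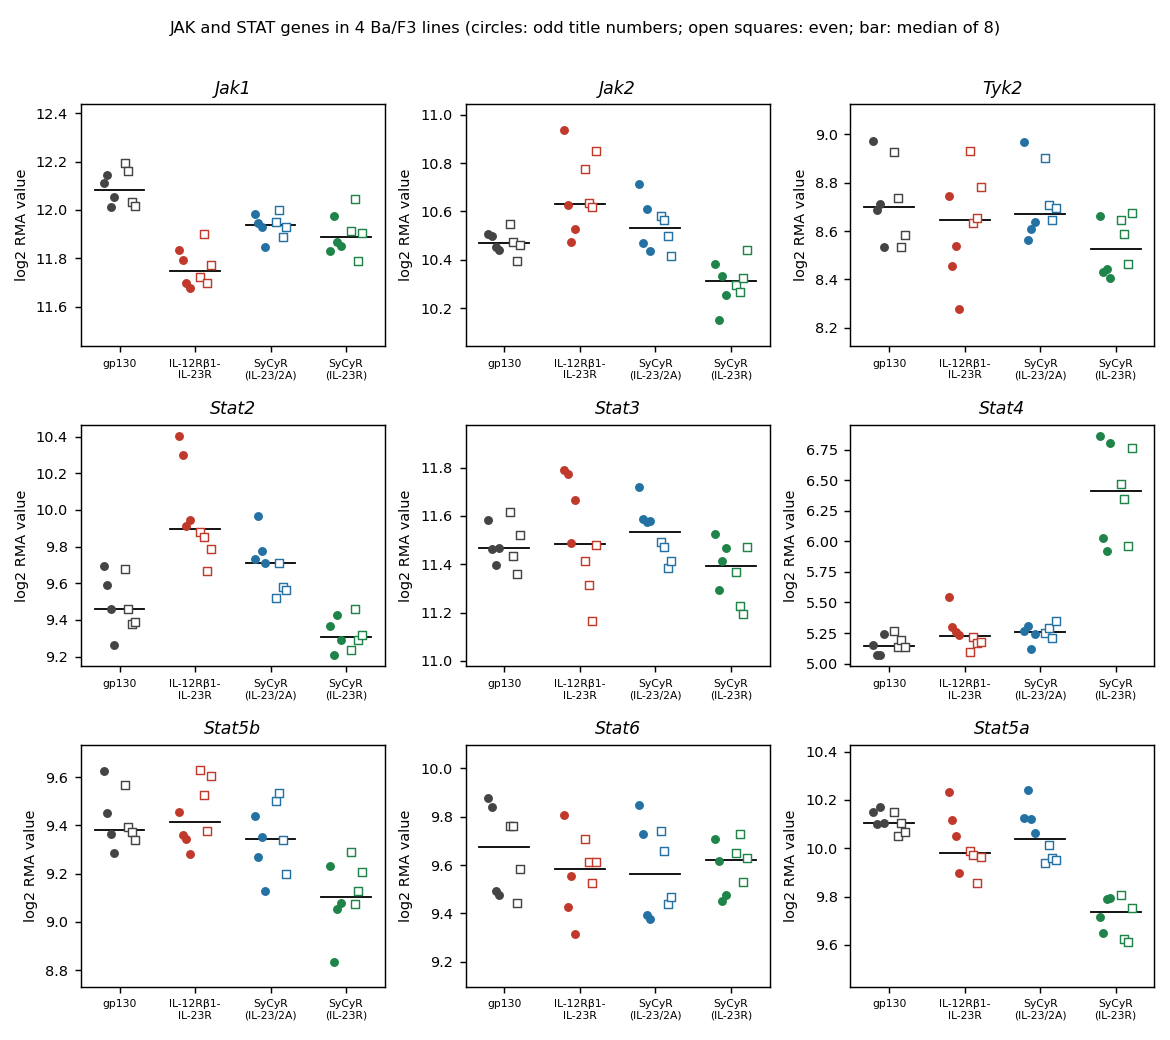
Log2 RMA values of 8 JAK and STAT genes and of Stat5a in 4 Ba/F3 lines, with a scale of its own in each panel (gp130 is the parental line, IL-12Rβ1-IL-23R the natural receptor line, SyCyR(IL-23/2A) the paired and SyCyR(IL-23R) the single SyCyR line). Each point is 1 array (filled circles, odd title numbers, 4 per line; open squares, even, 4 per line) and the bar is the median of 8; Stat4 in the single SyCyR line lies between 5.92 and 6.86, above every other array.

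Lines were compared with limma on all 32 arrays, and a call required at least 1.5-fold with an adjusted p (Benjamini-Hochberg over 23410 probe sets) under 0.05. By this rule 0 of 8 members were called in the natural receptor line against the parental line, where 2.91% of all probe sets were, and 0 of 8 in the paired SyCyR line against the parental line, beside 0.56%. In the single SyCyR line against the parental line it was 1 of 8, beside 1.52%. Among the receptor lines 0 of 8 were called in the paired SyCyR line against the natural receptor line (2.62% of all), 2 of 8 in the single SyCyR line against the natural receptor line (3.12%) and 1 of 8 in the single SyCyR line against the paired SyCyR line (1.05%). With no fold limit the test was passed 19 times over the 6 comparisons. By comparison it was passed by 3 of 8 members in the natural receptor line against the parental line (17.9% of all probe sets), by 1 in the paired SyCyR line against the parental line (6.23%), by 4 in the single SyCyR line against the parental line (14.7%), by 2 in the paired SyCyR line against the natural receptor line (18.4%), by 5 in the single SyCyR line against the natural receptor line (22.5%) and by 4 in the single SyCyR line against the paired SyCyR line (7.74%).

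Jak1, the kinase that gp130, interferon and many other receptors use, was highest in the parental line. Its log2 values ran from 12.01 to 12.20 (median 12.08) in the parental line and from 11.68 to 11.90 (median 11.75) in the natural receptor line. In the paired SyCyR line they started at 11.85, had a median of 11.94 and stayed under 12.01, and in the single SyCyR line from 11.79 to 12.04 (median 11.89). The arrays of the parental line overlapped neither with those of the natural receptor line, which held for 6.43% of all probe sets, nor with those of the paired SyCyR line, which held for 2.4%, but they did overlap with the single SyCyR line. Jak1 was lower than in the parental line by a log2 difference of -0.33 in the natural receptor line (SE 0.04, adjusted p = 5.2e-08 from limma), of -0.16 in the paired SyCyR line (adjusted p = 0.012) and of -0.20 in the single SyCyR line (adjusted p = 0.00055). It was also higher than in the natural receptor line by 0.17 in the paired SyCyR line (adjusted p = 0.0015) and by 0.13 in the single SyCyR line (adjusted p = 0.011). The SyCyR lines, neighbours in this order, did not differ beyond their spread (adjusted p = 0.75). When each array was centred on its median, the differences of the paired SyCyR line (-0.12, adjusted p = 0.14) and the single SyCyR line (-0.13, adjusted p = 0.052) from the parental line no longer passed.

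Jak2, which IL-23R, gp130 and the IL-3 receptor use, had its highest median in the natural receptor line and its lowest in the single SyCyR line. In the natural receptor line the values ran from 10.47 to 10.94 (median 10.63) and in the single SyCyR line from 10.15 to 10.44 (median 10.31), with no overlap. The parental line (10.39 to 10.55, median 10.47) and the paired SyCyR line (10.41 to 10.71, median 10.53) lay between them, and these neighbours did not differ beyond their spread (adjusted p = 0.58). Jak2 differed between the paired SyCyR line and the natural receptor line by -0.14 (adjusted p = 0.059, and 0.019 with the title number as a block). Between the paired SyCyR line and the natural receptor line no member was free of overlap (0 of 8, beside 5.72% of all probe sets). Against the parental line, Jak2 was higher by 0.21 in the natural receptor line (SE 0.05, adjusted p = 0.0046 from limma) and lower in the single SyCyR line (-0.17, adjusted p = 0.032). The single SyCyR line was below the natural receptor line by -0.37 (adjusted p = 1.4e-06) and below the paired SyCyR line by -0.23 (adjusted p = 0.0044). With centred arrays the differences of the single SyCyR line from the parental line (-0.10, adjusted p = 0.27) and from the paired SyCyR line (-0.21, adjusted p = 0.07) did not pass. With 1 array left out, the difference of the single SyCyR line from the parental line did not pass in 6 of 32 cases, without replicate 13, 14 or 15 of the parental line or without replicate 15, 16 or 19 of the single SyCyR line, at adjusted p of up to 0.077.

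Tyk2, the partner of IL-12Rβ1 and of the interferon receptors, was not separated by line. Its medians were 8.70 in the parental line, 8.67 in the paired SyCyR line, 8.64 in the natural receptor line and 8.53 in the single SyCyR line, and the ranges overlapped in every pair of lines. The widest spread was in the natural receptor line, from 8.28 to 8.93. The largest difference, of the single SyCyR line from the paired SyCyR line, was -0.18 (95% interval -0.33 to -0.02, adjusted p = 0.19 from limma). With the title number as a block it had an adjusted p of 0.0098, and the difference of the single SyCyR line from the parental line (-0.17) one of 0.0078.

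Stat3, the main STAT of IL-23 and IL-6 signaling, had medians within a narrow range, 11.53 in the paired SyCyR line, 11.49 in the natural receptor line, 11.47 in the parental line and 11.39 in the single SyCyR line. Without a block no neighbours in this order differed beyond their spread, with adjusted p of 0.92, 0.84 and 0.34. With the title number as a block Stat3 passed as lower in the single SyCyR line than in the natural receptor line (-0.14, adjusted p = 0.031, and 0.16 without the block) and than in the paired SyCyR line (-0.16, adjusted p = 0.032, and 0.20 without it). The arrays of the natural receptor line spread most, from 11.17 to 11.79, beside 11.36 to 11.62 in the parental line. The 95% interval of the difference of the natural receptor line from the parental line was -0.11 to 0.17. Stat3 is the first gene whose promoter is shown, because it passed the test between odd and even title numbers in one line. The window from 250 bases before to 50 bases after its RefSeq start (chr11:100939491-100939790, minus strand, GRCm38.p6) reads 5′ to 3′:
Stat3 promoter: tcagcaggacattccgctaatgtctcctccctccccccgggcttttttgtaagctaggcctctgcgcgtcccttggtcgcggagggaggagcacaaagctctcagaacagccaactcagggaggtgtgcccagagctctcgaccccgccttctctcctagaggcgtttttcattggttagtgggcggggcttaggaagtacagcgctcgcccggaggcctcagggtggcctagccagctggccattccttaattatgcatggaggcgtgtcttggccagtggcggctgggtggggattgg
The letters TTCNNNGAA, the palindromic core that STAT dimers bind, did not occur in this window on either strand, and neither did TTTC followed after any 2 bases by TTTC (GAAA and GAAA on the other strand), the core of the interferon-stimulated response element. Among all 32851 promoter windows of the same length, 8.3% held the first and 3.44% the second. In the 12 windows of the 8 members and Stat5a, all of which have an entry, 0 held the first and 2 held the second. A match or its absence in a window describes these letters only.

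Stat5b, a STAT of IL-3 and growth hormone signaling, was lowest in the single SyCyR line. There its values ran from 8.84 to 9.29 (median 9.11), and in the parental line they ran from 9.28 to 9.63 (median 9.38). The natural receptor line (9.28 to 9.63, median 9.41) and the paired SyCyR line (9.13 to 9.53, median 9.34) lay close to the parental line, and the 3 did not differ beyond their spread (adjusted p = 0.88 and 0.56 between neighbours). The differences of the single SyCyR line were -0.31 from the parental line (SE 0.06, adjusted p = 0.00067 from limma), -0.33 from the natural receptor line (adjusted p = 0.00013) and -0.23 from the paired SyCyR line (adjusted p = 0.019), the last with an adjusted p of 0.14 in centred arrays and of up to 0.051 in 3 of 32 fits with 1 array left out (replicates 14 and 16 of the paired SyCyR line and 15 of the single SyCyR line). Stat5a, its close relative, showed the same order at the low end, with 9.61 to 9.81 in the single SyCyR line and 9.86 or higher on every other array. Its differences of the single SyCyR line were -0.39 from the parental line (adjusted p = 1.9e-07), -0.29 from the natural receptor line (adjusted p = 1.4e-05) and -0.33 from the paired SyCyR line (adjusted p = 7.7e-06). Stat5b, Stat5a and Stat3 follow each other on chromosome 11 with no other gene of the table between them, and Stat3 differed in the single SyCyR line from the parental line by -0.11 (adjusted p = 0.34).

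Stat6, the STAT of IL-4 signaling, was the member least separated by line. Its medians were 9.67 in the parental line, 9.62 in the single SyCyR line, 9.58 in the natural receptor line and 9.56 in the paired SyCyR line, and no pair of lines differed beyond the spread. The intervals of the 3 differences from the parental line all lay between -0.24 and 0.10. Across arrays it was not constant, since the values ran from 9.32 to 9.88, and the description by title number returns to it.

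Stat2, which joins IRF9 in the factor that type I interferons activate, was highest in the natural receptor line and lowest in the single SyCyR line. In the natural receptor line the values ran from 9.67 to 10.41 (median 9.90), and in the single SyCyR line from 9.21 to 9.46 (median 9.31), with no overlap. The paired SyCyR line (9.52 to 9.97, median 9.71) also lay above every array of the single SyCyR line, and the parental line ran from 9.26 to 9.70 (median 9.46). 3 members, Jak2, Stat2 and Stat4, did not overlap between the single SyCyR line and the natural receptor line, beside 6.1% of all probe sets. The log2 difference of the single SyCyR line from the natural receptor line was -0.64 (SE 0.08, adjusted p = 1.3e-07 from limma), or 1.56-fold, and was called. Array 13 of the natural receptor line was its highest, and without it the difference was -0.58, just under 1.5-fold, with an adjusted p of 2e-07. On odd-numbered arrays alone it was -0.82 (adjusted p = 5.9e-05) and on even-numbered ones -0.47 (adjusted p = 0.00018). Stat2 also passed the test in the natural receptor line against the parental line (0.48, adjusted p = 2.6e-05), in the paired SyCyR line against the natural receptor line (-0.27, adjusted p = 0.014) and in the single SyCyR line against the paired SyCyR line (-0.37, adjusted p = 0.0024), each under 1.5-fold. The paired SyCyR line differed from the parental line by 0.21, with an adjusted p of 0.14 and, with the title number as a block, of 0.046. In the natural receptor line against the parental line it reached 0.64 on odd-numbered arrays (adjusted p = 0.00063) and 0.32 on even-numbered ones (adjusted p = 0.0064).

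The promoter of Stat2 is shown because it was the member, besides Stat4, that was called between lines, and because it holds the interferon element. The window lies at chr10:128270248-128270547 on the plus strand (GRCm38.p6). Capitals mark the repeat of TTTC, which starts 222 bases before the RefSeq start, and a wider form of the STAT core, TTC and GAA with 4 bases between, found in 6.95% of all windows, which starts 210 bases before it and does not overlap the first.
Stat2 promoter: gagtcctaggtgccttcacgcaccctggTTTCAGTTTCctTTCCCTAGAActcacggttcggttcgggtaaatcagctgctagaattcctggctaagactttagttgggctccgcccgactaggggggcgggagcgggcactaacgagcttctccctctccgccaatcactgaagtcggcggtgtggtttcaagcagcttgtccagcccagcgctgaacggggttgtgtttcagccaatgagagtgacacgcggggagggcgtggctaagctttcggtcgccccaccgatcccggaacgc
The genes with the most similar pattern to Stat2 over the 32 arrays, among 11085 genes with a mean above 7.04, were Nr4a2 (Pearson r = 0.912), Slc25a30 (r = 0.909) and Kat2b (r = 0.906). These are correlations over arrays of the same 4 lines and are given as a description. Nr4a2, which encodes an orphan nuclear receptor, had its highest median in the natural receptor line (9.14) and its lowest in the single SyCyR line (8.22). On chromosome 10 the measured neighbours of Stat2 are Apof and Il23a, which encodes the p19 subunit of IL-23. Both had line medians of 5.93 to 6.57, under 7.04, and neither was called between lines. Of 18 measured interferon response genes, 7 were higher and 0 lower in the natural receptor line than in the parental line, with a median difference of 0.48 beside 0.01 over all probe sets. They included Oas2 (1.44), Ddx58 (1.05), Ifit2 (0.96) and Irf7 (0.74). In the single SyCyR line against the natural receptor line, 1 was higher (Gbp3, 1.02) and 5 were lower, among them Ddx58 (-1.12) and Oas2 (-1.07), with a median of -0.23. Irf9, named for its role beside STAT2 and after its values were seen, was higher by 0.59 in the natural receptor line than in the parental line (adjusted p = 4e-04) and differed by -0.58 in the single SyCyR line from the natural receptor line (adjusted p = 0.00043).

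Stat4, which carries IL-12 signals in T and NK cells, was separate in the single SyCyR line. Its arrays 13 to 20 read 6.86, 6.47, 6.02, 6.35, 5.92, 5.97, 6.81 and 6.76 in that line. In the other lines the values ran from 5.07 to 5.26 in the parental line (median 5.15), from 5.10 to 5.55 in the natural receptor line (median 5.22) and from 5.12 to 5.35 in the paired SyCyR line (median 5.26). No array of the single SyCyR line overlapped with any other line, and arrays 15, 17 and 18 were its lowest. Stat4 was the 1 member without overlap between the single SyCyR line and the parental line (4.73% of all probe sets), and between the SyCyR lines Stat2 and Stat4 were the 2 without overlap (2.0%). The other 3 lines did not differ beyond their spread (adjusted p = 0.99 and 0.64 between neighbours). The single SyCyR line passed the test against the parental line (adjusted p = 2.6e-11 from limma), the natural receptor line (adjusted p = 3.9e-11) and the paired SyCyR line (adjusted p = 2.1e-10). All Stat4 values are under 7.04, so these are differences between signals not shown to be above background, and the 1.5-fold of the call is one of signal and not a fold change of the transcript. The call held with any single array left out, and without arrays 17 and 18 of every line the adjusted p against the parental line was 1.6e-10.

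RefSeq lists Stat4 with 2 starts, and both promoters are shown because the gene separated one line from the rest. The first lies at chr1:51986898-51987197 and the second at chr1:52007990-52008289, both on the plus strand (GRCm38.p6). In the second, capitals mark the repeat of GAAA, the interferon element read on the other strand, which starts 97 bases before the RefSeq start. Which start the probes cover was not analysed here.
Stat4 promoter 1: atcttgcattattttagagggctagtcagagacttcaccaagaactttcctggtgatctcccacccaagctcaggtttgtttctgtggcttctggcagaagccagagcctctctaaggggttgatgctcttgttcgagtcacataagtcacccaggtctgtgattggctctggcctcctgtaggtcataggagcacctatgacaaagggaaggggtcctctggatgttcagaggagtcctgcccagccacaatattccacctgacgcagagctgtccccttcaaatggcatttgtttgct
Stat4 promoter 2: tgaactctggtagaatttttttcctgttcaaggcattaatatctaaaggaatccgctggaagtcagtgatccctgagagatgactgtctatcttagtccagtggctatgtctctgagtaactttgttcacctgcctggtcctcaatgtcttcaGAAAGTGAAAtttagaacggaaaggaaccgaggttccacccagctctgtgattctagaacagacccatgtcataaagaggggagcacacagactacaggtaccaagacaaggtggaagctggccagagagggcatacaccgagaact
The genes most like Stat4 over the 32 arrays, among 11086 compared, were Nadk, a NAD kinase gene (Pearson r = 0.915), Slc25a33, a mitochondrial carrier gene (r = 0.909), and C1rl, a complement-related protease gene (r = 0.894). Nadk had a median of 11.28 in the single SyCyR line and of 10.50 to 10.63 in the other lines. The nearest measured genes to Stat4 on chromosome 1, Nabp1 and Nab1, are not adjacent to it, with 6 and 9 other genes of the table between. Both were higher in the single SyCyR line than in the parental line, by 0.52 (adjusted p = 0.0018 from limma) and 0.28 (adjusted p = 9.3e-05), under 1.5-fold. With no fold limit, 14.7% of all probe sets passed this comparison. Nab1 also passed against the natural receptor line (0.25, adjusted p = 0.00026) and the paired SyCyR line (0.21, adjusted p = 0.0046), and Nabp1 did not (0.31, adjusted p = 0.056, and 0.28, adjusted p = 0.17). Nabp1 was higher on odd than on even arrays of the natural receptor line by 0.62 (adjusted p = 0.00014) and of the paired SyCyR line by 0.46 (adjusted p = 0.016). Of 8 genes of STAT4 and Th1 cells, 0 were higher and 1 was lower in the single SyCyR line than in the parental line (Il18r1, -0.71), with a median of 0.10. Il12rb2, the signaling chain of the IL-12 receptor, was higher in the single SyCyR line than in the natural receptor line by 1.80 and than in the paired SyCyR line by 0.69, with line medians of 10.03, 8.29 and 9.29. Its median in the parental line was 9.48.

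Markers of other cells moved with the single SyCyR line as well, and their part in the Stat4 result was not tested. Of 14 granulocyte and macrophage markers, 3 were higher (Itgam 1.86, Lyz2 1.43, Ctsg 1.33) and 1 lower (Mpo, -1.89) than in the parental line, and 8 of the 14 had a median above 7.04 in the single SyCyR line beside 5 in the parental line. The mean level of this list ran from 7.05 to 7.46 over the arrays of the single SyCyR line, from 6.83 to 7.03 in the parental line, from 6.60 to 6.79 in the natural receptor line and from 6.89 to 7.20 in the paired SyCyR line. Itgam was highest on arrays 16 (8.65) and 20 (8.18) of the single SyCyR line, and Stat4 on arrays 13 and 19. Both were lowest on arrays 17 and 18, where Itgam read 7.14 and 7.23 and Stat4 5.92 and 5.97. Ctsg was also lowest there (7.33 and 7.40), but so it was on the same arrays of the parental line (6.09 and 5.97). Mpo was lowest there too (7.21 and 7.19), as in the parental line (8.72 and 8.73). Lyz2 was lowest on array 17 (6.57) but read 7.24 on array 18 and 7.12 on array 16. In the parental line Stat4 read 5.07 and 5.20 on arrays 17 and 18, within its range of 5.07 to 5.26. Of 8 T cell markers 0 were called between the single SyCyR line and another line. The list ran from 6.28 to 6.56 in the single SyCyR line and from 6.35 to 6.49 in the parental line. As medians, 1 of the 8, Cd8a, lay just above 7.04 in every line (7.14 to 7.24), and the others, Cd3e, Cd3d, Cd3g and Cd4 among them, lay under it. Of 11 markers of mast cells and basophils, only Fcer1a (1.40) was called higher in the single SyCyR line than in the parental line, and the list ran from 7.01 to 7.15 and from 6.96 to 7.18.

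**Figure D2:**
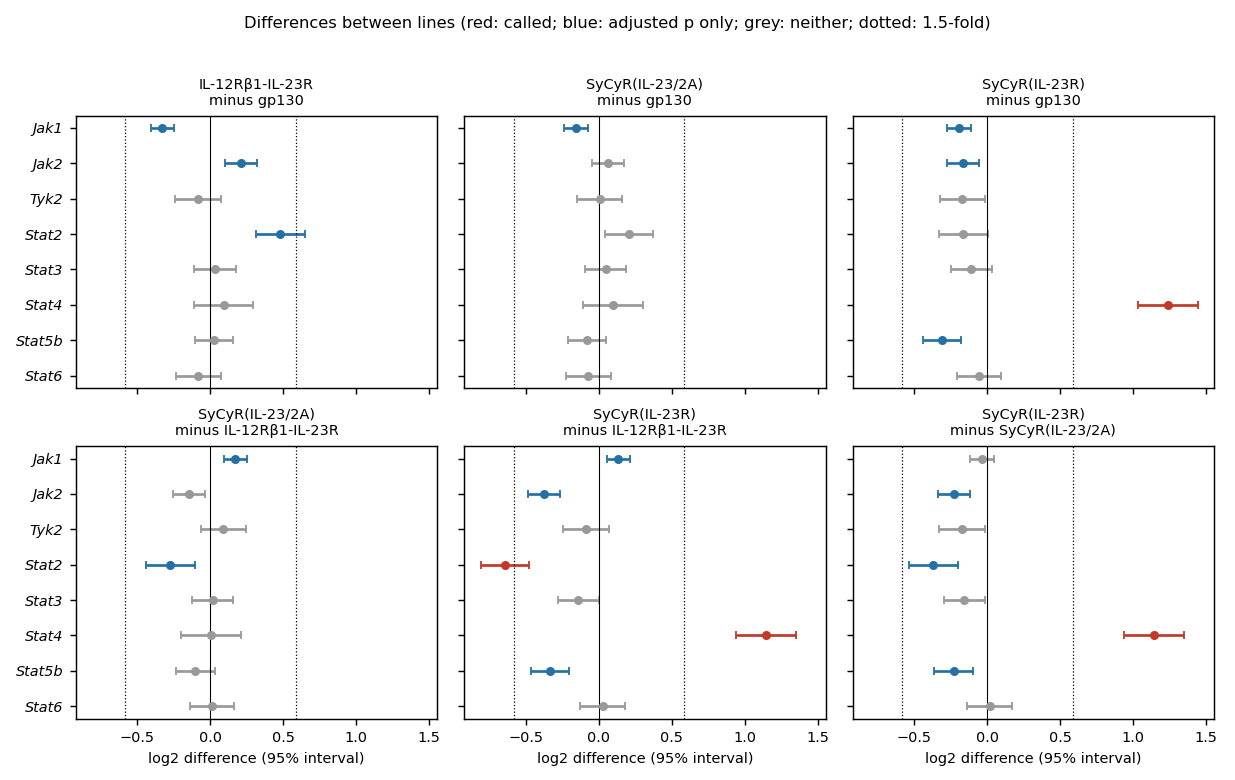
Log2 differences between lines for 8 JAK and STAT genes (points, limma on 32 arrays; bars, 95% intervals), 1 panel per pair of lines. Red marks a call at an adjusted p under 0.05 and 1.5-fold (dotted lines), which Stat4, with all signals under 7.04, reached in the 3 pairs with the single SyCyR line and Stat2 in 1, and blue marks an adjusted p under 0.05 alone.

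Against the parental line most members other than Stat4 lay lower in the single SyCyR line. Of the 8, 7 had a difference below 0, and the median was -0.17 beside 0.01 over all probe sets. Of these 7, Jak1, Jak2 and Stat5b passed the test. Against the paired SyCyR line 6 of 8 lay below and 2 above, and against the natural receptor line 5 below and 3 above, with Jak1 passing as higher. Array medians of the single SyCyR line were lower than those of the parental line by a log2 difference of -0.06 on average. In the natural receptor line and the paired SyCyR line 5 of 8 members were above the parental line, with a median of 0.03 in each. The plot of differences between lines shows that, besides Stat4, only Stat2 reached 1.5-fold, in the single SyCyR line against the natural receptor line.

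Within a line, the odd and even title numbers were compared because the values of known STAT target genes alternate between them. The split was made with earlier results of these data known, so counts of target genes below are a description of it and no independent evidence. In the parental line 0% of all probe sets were called between odd and even arrays, and 0 of 8 members. In the natural receptor line it was 0.991% and 0 of 8, in the paired SyCyR line 0.487% and 0 of 8, and in the single SyCyR line 0.137% and 0 of 8. With no fold limit 2 of 8 members passed in the natural receptor line, Stat2 and Stat3, beside 3.12% of all probe sets, and 0 in the paired SyCyR line (0.953%), the single SyCyR line (0.175%) and the parental line (0%). At an unadjusted p under 0.05 Tyk2 passed as well in the natural receptor line, and Stat2 and Stat3 did in the paired SyCyR line.

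Stat3 was higher on the odd-numbered arrays of the natural receptor line, which read 11.79, 11.77, 11.49 and 11.66 beside 11.41, 11.32, 11.17 and 11.48 on the even-numbered ones. The groups did not overlap, although the gap between array 17 (11.49) and array 20 (11.48) was narrow. The log2 difference was 0.34 (95% interval 0.18 to 0.49, adjusted p = 0.0071 from limma), or 1.26-fold. In the paired SyCyR line the odd arrays read 11.72, 11.59, 11.58 and 11.58 and the even ones 11.49, 11.47, 11.38 and 11.41, again without overlap, with a difference of 0.18 (95% interval 0.02 to 0.33, adjusted p = 0.62). In the single SyCyR line the difference was 0.11 (95% interval -0.05 to 0.26), and in the parental line it was -0.00 (95% interval -0.16 to 0.15), both with overlap. Stat2 gave a similar picture. Its odd arrays in the natural receptor line read 10.41, 10.30, 9.91 and 9.95 and its even ones 9.88, 9.85, 9.67 and 9.79, without overlap. The difference was 0.35 (95% interval 0.15 to 0.55, adjusted p = 0.045), and in the paired SyCyR line it was 0.20 (95% interval 0.00 to 0.40, adjusted p = 0.70), with overlap. It was 0.03 in the parental line and -0.00 in the single SyCyR line.

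Neither difference in the natural receptor line reached 1.5-fold, and passing the test depended on the setting for both. With each array centred on its median Stat3 had a difference of 0.28 (adjusted p = 0.11) and Stat2 one of 0.29 (adjusted p = 0.18), and odd arrays of this line had medians higher by 0.05. Fitted on the arrays of the natural receptor line alone, the adjusted p were 0.14 and 0.23. Without replicate 18 of the natural receptor line Stat3 had an adjusted p of 0.051, and Stat2 did not pass in 17 of 32 fits with 1 array left out, at up to 0.15 without replicate 15. The test of whether the odd minus even difference itself differed between lines passed for 0 of 8 members in each of the 6 pairs. Of all probe sets 1.2%, 0.402% and 0.0982% passed for the natural receptor, paired SyCyR and single SyCyR lines against the parental line (0.889%, 0.32% and 0.094% with 1.5-fold). For the paired and the single SyCyR line against the natural receptor line 0.111% and 0.598% passed (0.103% and 0.487%), and for the single against the paired SyCyR line 0.0812% (0.0769%). Of the members, 4 of these 48 tests had an unadjusted p under 0.05 (Stat2 and Stat3 in the natural receptor line against the parental and the single SyCyR line). For Stat3 in the natural receptor line against the parental line this difference was 0.34 (SE 0.11, adjusted p = 0.16), and 0.026 with the title number as a block. In simulated data a change of 0.3 passed this test in 8% of cases, so not passing does not show that lines were alike. Not overlapping between odd and even arrays were 3 members in the natural receptor line, Stat2, Stat3 and Stat4 (7.98% of all probe sets), 1 in the paired SyCyR line, Stat3 (5.06%), and 0 in the single SyCyR line (1.76%) and the parental line (1.26%). Stat4 in the natural receptor line lay under 7.04 on all arrays (5.10 to 5.55), with a difference of 0.17 (adjusted p = 0.56 from limma).

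The other members differed less or in the opposite direction. In the natural receptor line Tyk2 had a difference of -0.25 (95% interval -0.46 to -0.04, adjusted p = 0.21), Stat5b one of -0.17 (-0.35 to 0.00) and Jak2 one of -0.08 (-0.24 to 0.08). Tyk2 read 8.74, 8.45, 8.54 and 8.28 on the odd arrays of the natural receptor line and 8.93, 8.63, 8.66 and 8.78 on the even ones, which overlap. Each odd array was lower than the even array with the next number, and with such consecutive numbers as a block, an alternative chosen after seeing the data, Tyk2 had an adjusted p of 0.025. Stat5a had differences of 0.13 in the natural receptor line (adjusted p = 0.27) and 0.17 in the paired SyCyR line (adjusted p = 0.36). In the parental line all 8 members lay between -0.05 and 0.03.

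**Figure D3:**
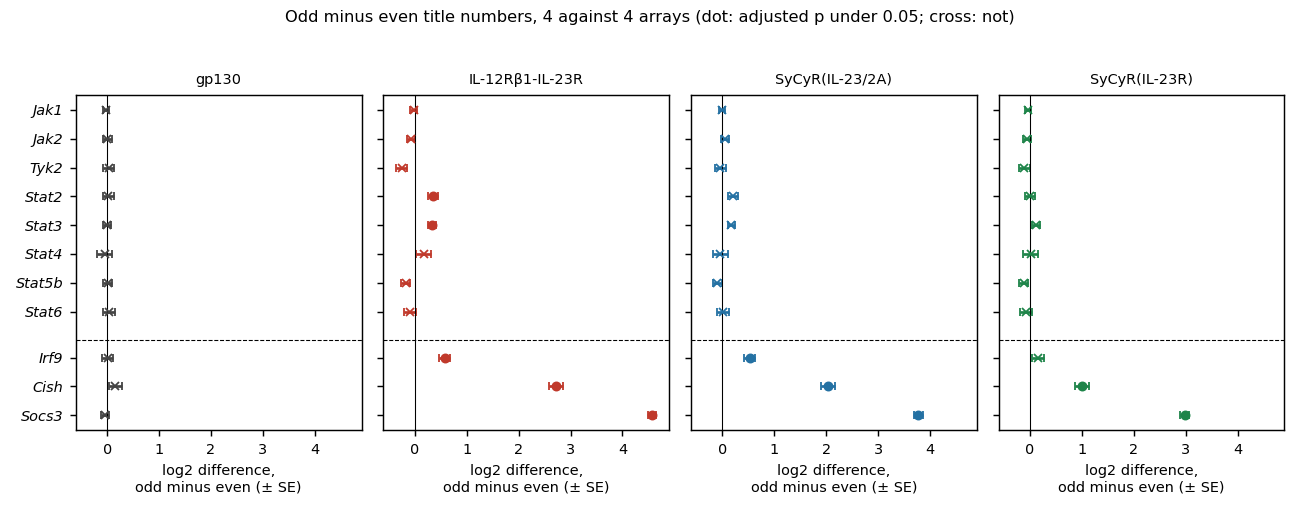
Log2 difference of odd minus even title numbers (4 against 4 arrays; points, limma estimates; bars, SE) in each line for 8 JAK and STAT genes and, below the dashed line, for Irf9, Cish and Socs3. Dots mark an adjusted p under 0.05 and crosses the rest. Socs3 reached 4.57, 3.77 and 2.98 in the 3 receptor lines, and no member passed 0.35. The split was made because known STAT target genes alternate.

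Genes that STATs are known to induce differed far more between odd and even arrays than the STAT genes. The split was made because such genes alternate, so this contrast is a description and no independent result. Socs3, a feedback inhibitor of JAKs, ran from 12.76 to 13.01 on the odd arrays of the natural receptor line and from 8.20 to 8.44 on the even ones, and from 8.44 to 8.66 on all arrays of the parental line. Its differences were 4.57 in the natural receptor line, 3.77 in the paired SyCyR line and 2.98 in the single SyCyR line. Cish, a feedback inhibitor that STAT5 induces, had differences of 2.72, 2.03 and 1.00. Of 20 STAT3 target genes 14 were higher and 0 lower on odd arrays of the natural receptor line, with a median of 1.47 beside 0.00 over all probe sets. In the paired SyCyR line it was 12 and 0 (median 1.10) and in the single SyCyR line 9 and 0 (median 0.53), and in the parental line 0 were called. Among them were the cytokine genes Osm (4.39, 3.89 and 2.39 in the 3 receptor lines) and Lif (3.48, 2.84 and 1.60). Of 10 STAT5 target genes, which share Osm, Pim1 and Bcl2l1 with that list, 6, 6 and 4 were higher and 0 lower in the natural receptor line, the paired SyCyR line and the single SyCyR line. Irf9, chosen after its values were seen, had differences of 0.57 in the natural receptor line (adjusted p = 0.0015), 0.52 in the paired SyCyR line (adjusted p = 0.011) and 0.15 in the single SyCyR line (adjusted p = 1). The plot of odd minus even differences sets these beside the members on one scale.

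Of the proteins that sit above and beside the JAKs, a few stood out on the same comparisons. Of 25 JAK-STAT regulators, 3 were higher and 0 lower on odd arrays of the natural receptor line and of the paired SyCyR line, namely Socs3, Cish and Socs1 (1.51 and 1.21), and 2 in the single SyCyR line, Socs3 and Cish. The median of this list was between -0.02 and 0.02 in the 3 lines. Of 27 receptor chains that bind JAKs, 1 was higher on odd arrays in each of them, Il4ra (2.46, 1.91 and 1.43), the IL-4 receptor chain whose STAT is Stat6. Stat6 itself differed there by -0.09, 0.01 and -0.07. Socs3 and Il4ra were also among the STAT3 target genes counted above, and Cish and Socs1 among the STAT5 target genes, so they are not separate findings. Between lines, Usp18, which limits interferon receptor signaling, was higher than in the parental line in the natural receptor line (0.69) and in the single SyCyR line (0.82). Ptpn6, a phosphatase that acts on JAKs, was lower than in the natural receptor line by -0.74 in the paired SyCyR line and by -0.78 in the single SyCyR line. Csf2rb, the β chain shared by the receptors of IL-3, IL-5 and GM-CSF, which binds Jak2, was under or near 7.04 on the arrays of the natural receptor line (6.36 to 7.26) and at least 12.33 in the other lines.

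Another pattern followed the title number within the range from 13 to 20 and was noticed after the values were seen, so it is described without a test. Stat6 was higher on arrays 13 to 16 than on arrays 17 to 20 in all lines as a mean. In the parental line arrays 13 to 16 ran from 9.76 to 9.88 and arrays 17 to 20 from 9.44 to 9.59. In the paired SyCyR line they ran from 9.66 to 9.85 and from 9.38 to 9.47, also without overlap. In the single SyCyR line (9.62 to 9.73 and 9.45 to 9.63) and the natural receptor line (9.43 to 9.81 and 9.32 to 9.61) they overlapped. In the parental line 5 members, Jak1, Jak2, Stat2, Stat5b and Stat6, had all of arrays 13 to 16 above all of arrays 17 to 20, beside 10.9% of all probe sets. In the paired SyCyR line it was 2 members, Jak1 and Stat6 (4.25%), and in the natural receptor line (3.17%) and the single SyCyR line (2.96%) 0. Tyk2 had its highest values of the parental line (8.97 and 8.93) and of the paired SyCyR line (8.97 and 8.90) on arrays 13 and 14. The labels do not say what the numbers stand for, and same-numbered arrays deviated together to a varying degree over all probe sets, with correlations of deviations from the means of line and odd or even number between 0.062 and 0.549, those with the parental line included.

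**Figure D4:**
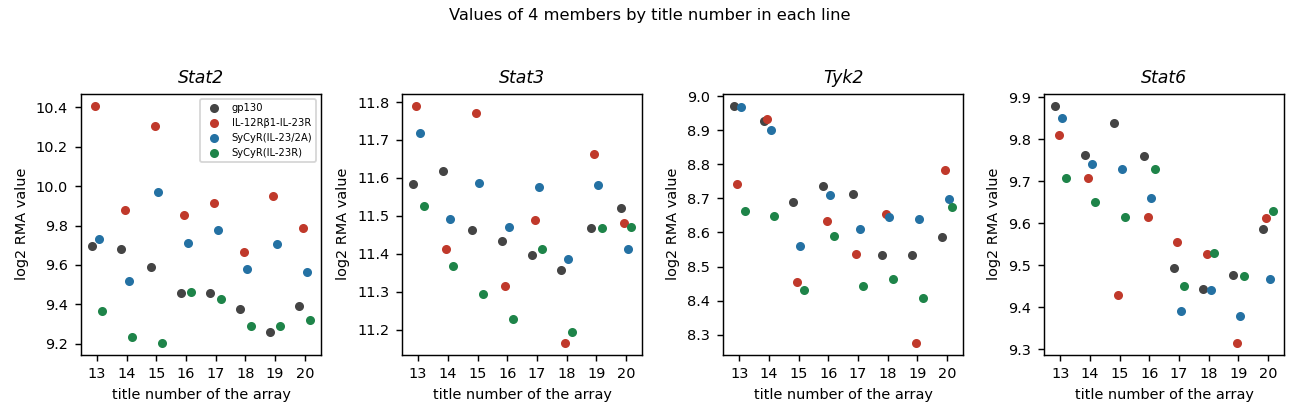
Log2 RMA values of Stat2, Stat3, Tyk2 and Stat6 by title number of the array in the 4 lines (1 point per array, colours as in the legend of the first panel). Stat2 and Stat3 of the natural receptor line alternate between odd and even numbers, and Stat6 of the parental line lies between 9.76 and 9.88 on arrays 13 to 16 and between 9.44 and 9.59 on arrays 17 to 20.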

How the data were processed

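RNA of 32 samples was hybridised by the authors to Affymetrix Mouse Gene ST 1.0 arrays, and the deposited table holds log2 values per probe set, which the authors made with RMA in Expression Console at gene level with sketch-quantile normalization. The version was not given in the sources used here. Of 35556 probe sets, 21789 have 1 symbol in the platform annotation, 1621 several and 12146 none, and 21698 of the first were found by gene identifier in the gene table of GRCm38.p6, used for names, chromosomes and neighbours. The genes, gene lists and the split by odd and even number were chosen with earlier results of these data known.

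Groups came from the sample labels. Linear models were fitted with limma 3.58.1 (lmFit, eBayes; R 4.3.3) over all 32 arrays to the 23410 probe sets with a symbol, with line means for the 6 pairs of lines and with 8 means of line by odd or even number for the other comparisons. Probe sets with several symbols entered the adjustment but were not named. Each member had 1 probe set. For list genes with several, the one with the highest mean was used. From each list up to 4 called genes with the largest difference were named per comparison, and for called members the 3 most correlated genes and the measured neighbours. The number of arrays limits the precision. The methods describe 4 independent biological replicates, and for the parental line p-values measure only the spread between these samples. Each receptor complex is 1 selected line, so all p-values between lines measure only the spread between arrays of single lines. The fits were tested on simulated data, with a log2 change added to 50 probe sets per size. A change of 0.3 passed the adjusted p in 84% of cases between lines and in 36% between odd and even arrays. For the difference of odd minus even between lines it passed in 8%. A change of 1 passed in 100%, 100% and 96%. The simulated arrays were independent and carried only the spread within line and odd or even number. The shares for comparisons of lines therefore need not hold for the real arrays. The methods give thresholds of 1.5-fold and p of at most 0.01, and the comparison of stimulated with control cells was not made.

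Whether same-numbered arrays of different lines pair was checked by correlating deviations from line means. The lowest correlation of same-numbered arrays was 0.374, 0.22 and 0.193 between the 3 receptor lines, and -0.068, -0.039 and -0.01 with the parental line. These deviations hold the alternation of odd and even numbers. From means of line and odd or even number the lowest were 0.115, 0.062 and 0.072 between the receptor lines and 0.112, 0.088 and 0.072 with the parental line, so the contrast between them was not seen there. No label gives this pairing, and values with the number as a block are given where they change which side of the threshold a member lies on. Whether consecutive numbers within a line pair was not checked in this way. They were a block only for comparisons of odd and even numbers, so tests between lines count 8 arrays per line as independent. Alternatives were a block by number, other filters, normalizations, call rules and subsets of arrays. Promoter sequences are from RefSeq (GRCm38.p6), and tables and plots were made with Python 3.11.15, numpy, pandas and matplotlib.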

Additional observations from a re-analysis of the deposited data

Results flagged for a closer look

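In 96 groups of 4 or 8 arrays, 3 values of members lay far from the others of their group, and chance alone sets apart about 1 group in 20. All 3 were array 13. Tyk2 on the odd arrays of the single SyCyR line read 8.66 on array 13, while the next was 8.44 and the lowest 8.41. Without it the odd minus even difference was -0.17 (adjusted p = 0.86 from limma). Stat3 on the odd arrays of the paired SyCyR line read 11.72, and the others lay between 11.58 and 11.59. Without it the difference was 0.14 (adjusted p = 0.51). Stat4 in the natural receptor line read 5.55, and the other 7 arrays lay between 5.10 and 5.30. Without it the single SyCyR line against the natural receptor line had an adjusted p of 3.2e-11.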

How the results depend on the processing

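Between lines 4 values of members were called, and 0 between odd and even numbers or in the tests of a difference between lines. With an array left out the counts were 3 to 4, 0 to 0 and 0 to 0, and the 3 came without replicate 13 of the natural receptor line, where Stat2 missed 1.5-fold. Among probe sets with a mean above the median of all means, 1 was called between lines, Stat2, since Stat4 lies under that filter. With no fold limit the counts were 19 and 2, by construction. Odd-numbered arrays alone gave Stat2 a call in the natural receptor line against the parental line (0.64), and even-numbered ones took its call in the single SyCyR line against the natural receptor line away (-0.47). The count of calls stayed within 1.5 times under all other alternatives, and no called value changed sign. The title number as a replicate block left the counts at 4, 0 and 0. It moved 7 of 128 single values to an adjusted p under 0.05, among them Stat3 in the single SyCyR line against the natural receptor line (0.031) and against the paired SyCyR line (0.032). Centring moved 7 the other way, and the cause was not tested. Consecutive numbers of a line as a block, chosen after seeing the data, moved 2 of 80 values across the threshold. Tyk2 between odd and even arrays of the natural receptor line was among them. No other probe set of a member exists, so that alternative was not run. Array depth over background is not known here, and values under the median of probe set means, as for Stat4, have the least support.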
